A study of Aspergillus oryzae with 20 samples.

Results

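Starch breakdown in Aspergillus oryzae, the koji mould, was followed through 7 listed genes: amyR, which encodes the zinc-finger transcription factor AmyR, and 6 genes for starch-degrading enzymes, namely 3 copies of α-amylase, the glucoamylase genes glaA and glaB and the α-glucosidase gene agdA. The genes were chosen by locus tag. Of the 7, 6 were analysed, out of 12074 genes in all, and the α-amylase copy AO090003001210 was not analysed here. All 6 passed the filter on low values, which kept 10652 genes. The levels come from RNA sequencing of 4 strains of RIB40 background, the strain of the reference genome, with 5 libraries a strain. ADAM proteins are metalloproteases, and the study removed 2 genes named for them, admA and admB.

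By its labelled genotype, the ΔadmAΔadmB strain carried both del-admA and del-admB, the ΔadmA strain del-admA, the ΔadmB strain del-admB and the deletion control neither. All 4 strains, the control included, shared del-pyrG together with pyrG+ and ligD+. Conidia were sown on 76.5 g of wheat bran wetted with 70 mL of water per 100 g, in a 1 L flask, and the cultures were harvested after 72 h at 30 °C. Each library took 4 µg of total RNA. Whether separate flasks gave rise to the 5 replicates is not stated, so p-values cover only how these libraries spread, and that spread may be technical.

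In aspergilli, AmyR binds the promoters of amylolytic genes and switches them on when starch or its breakdown products such as maltose and isomaltose are present. α-Amylase cuts inside starch chains, glucoamylase releases glucose from chain ends, and α-glucosidase splits short maltooligosaccharides and can form isomaltose by transglycosylation. In A. oryzae, glaB is known as the glucoamylase gene expressed in solid-state culture, and glaA as the one expressed in submerged culture too. In the reference order amyR and agdA are direct neighbours, and the α-amylase copies AO090023000944 and AO090120000196 are elsewhere.

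The values are RPKM, reads scaled to the length of the gene model and to the total of mapped reads. The RPKM of all genes summed to between 3974009 and 5401733 per library, which would need a read-weighted mean gene model of 0.185 to 0.252 kb. The values were therefore read as levels relative to each other and not as shares of mapped reads, and the depth in reads is unknown. The smallest steps between low values divided the libraries into a set of 12 and a set of 8. The first set held 3 ΔadmAΔadmB, 3 ΔadmA, 4 ΔadmB and 2 control libraries, and the second 2 ΔadmAΔadmB, 2 ΔadmA, 1 ΔadmB and 3 control libraries. The sources used here do not name these sets. The level of admA was 0 in all 5 ΔadmAΔadmB libraries, at most 0.0917 RPKM in ΔadmA, 0.208 to 3.42 RPKM in ΔadmB and 0 to 14.2 RPKM in control libraries, with a control median of 0.130 RPKM. Since admA was close to 0 in control libraries too, it checks the labels only weakly, and admB was not analysed here.

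The starch genes kept one order of level in every library. In 20 of 20 libraries the α-amylase copies stood above both glucoamylase genes, the glucoamylase genes above agdA, and agdA above amyR, all on the RPKM scale. An α-amylase copy was the most abundant of all genes in 10 of 20 libraries, and both copies were among the 5 most abundant in 13. Within the ΔadmAΔadmB strain alone, summed α-amylase spanned a 46.5-fold range. With all libraries weighted equally, no starch gene passed the test in any comparison of strains that was made. ΔadmA was not tested against ΔadmB.

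**Figure D1:**
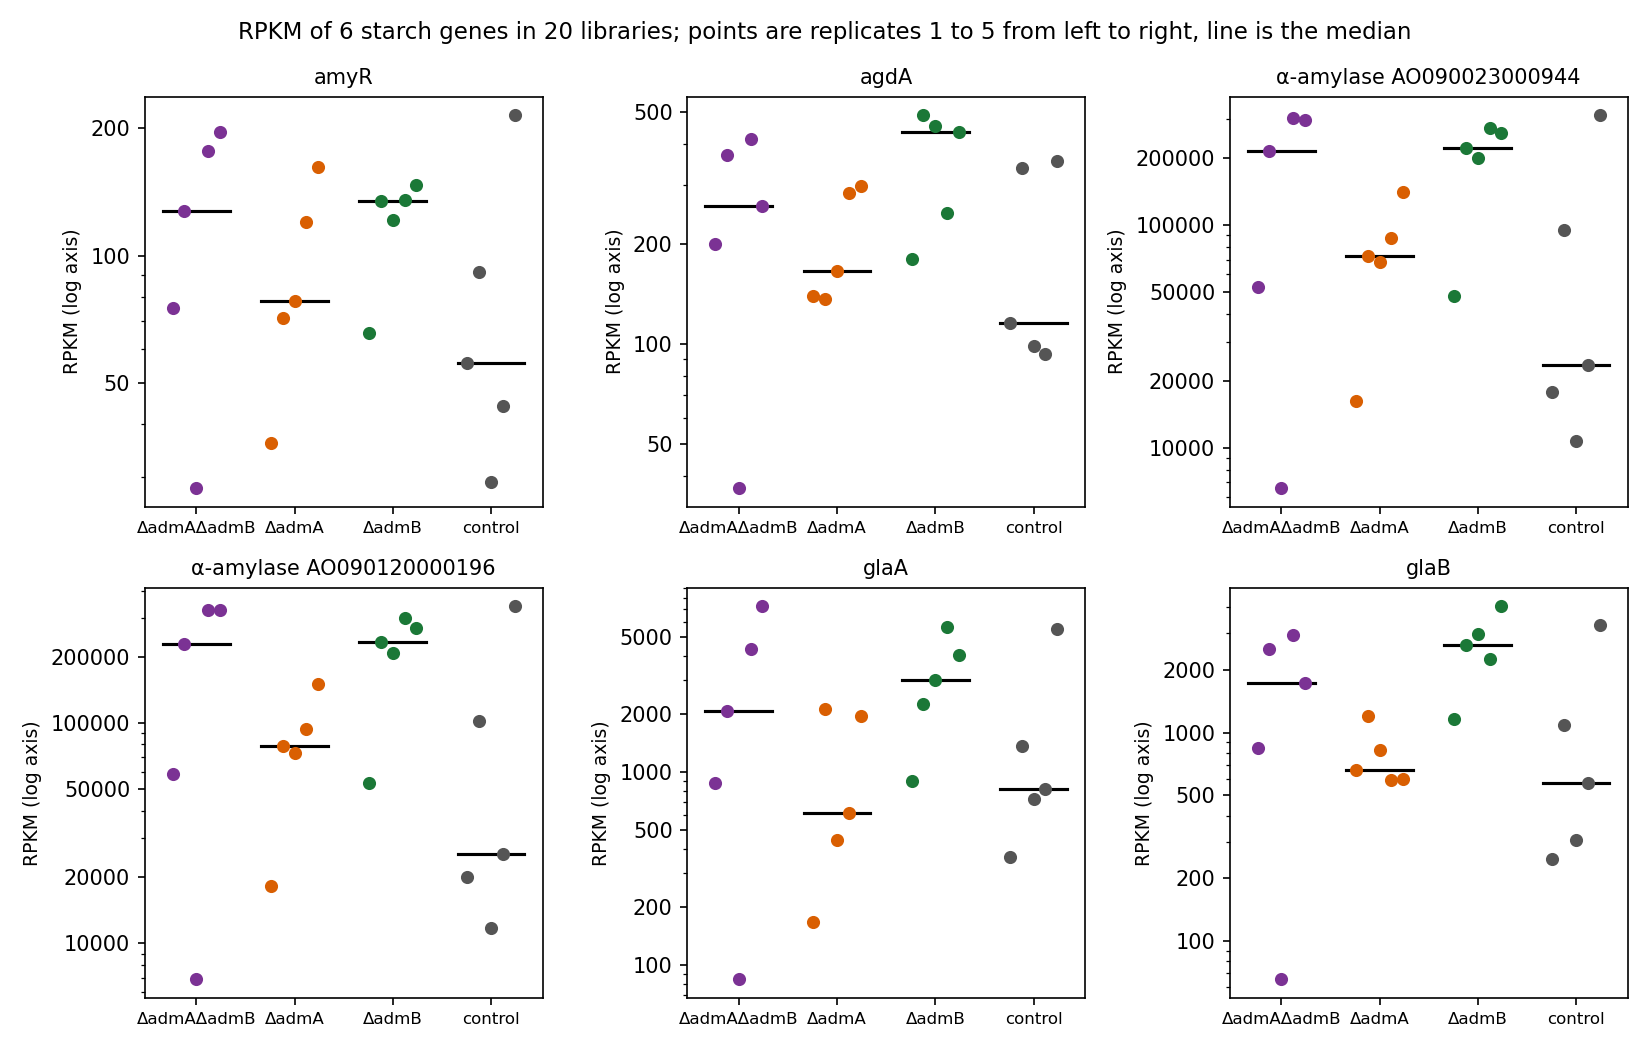
RPKM of the 6 starch genes on a log axis, with the ΔadmAΔadmB, ΔadmA, ΔadmB and control strains along the horizontal axis. Each point is 1 library and each line a strain's median, and the ranges of the strains overlap for every gene.

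The regulator gene amyR was the least abundant of the 6 genes, and its level ran between 28.2 and 215 RPKM, a 7.61-fold range. It had 75.2, 128, 28.2, 177 and 196 RPKM in the ΔadmAΔadmB libraries and 36.1, 71.2, 78.1, 120.1 and 162 RPKM in the ΔadmA libraries. It had 65.6, 134, 122, 135 and 147 RPKM in the ΔadmB libraries, against 55.7, 91.4, 29.1, 44.1 and 215 RPKM in the control libraries. The lowest and the highest values belonged to ΔadmAΔadmB replicate 3 and to control replicate 5, and all 4 strains overlapped. The means were 121 ± 69.7 RPKM in ΔadmAΔadmB, 93.5 ± 48.6 RPKM in ΔadmA, 120.7 ± 32.0 RPKM in ΔadmB and 87.0 ± 75.0 RPKM in the control (SD, n = 5 each). Its place among all genes by level lay between 2135th and 5971st. In bulk RNA, fewer cells that express a gene and less RNA per cell cannot be told apart.

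The α-amylase copies were the most abundant of the 6 genes and among the most variable. These enzymes start the digestion of starch and are the main secreted protein of koji. The copy AO090023000944 ran between 6607 and 311041 RPKM, a 47.1-fold range, and AO090120000196 between 6877 and 338790 RPKM, a 49.3-fold range. Near-identical copies can share reads, and the ratio of the first copy to the second stayed between 0.893 and 0.961 in all 20 libraries. The sum of the 2 copies is therefore read as the level. The third copy is not part of this sum.

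The 2 copies summed to 111266, 445134, 13484, 626356 and 620934 RPKM in the ΔadmAΔadmB libraries and to 34493, 151338, 141983, 181564 and 290665 RPKM in the ΔadmA libraries. They summed to 101619, 453569, 407380, 570557 and 529010 RPKM in the ΔadmB libraries, against 37874, 197984, 22571, 49038 and 649831 RPKM in the control libraries. ΔadmAΔadmB and the control each held libraries at both ends of the range, whereas ΔadmB replicates 2 to 5 lay close together with replicate 1 well below them. The strain means were 363435 ± 286427 RPKM in ΔadmAΔadmB, 160008 ± 91774 RPKM in ΔadmA, 412427 ± 185011 RPKM in ΔadmB and 191460 ± 265774 RPKM in the control (SD, n = 5 each). As a share of the summed RPKM of a library, the copies held 7.40 ± 5.62% in ΔadmAΔadmB, 3.78 ± 2.07% in ΔadmA, 8.57 ± 3.55% in ΔadmB and 4.24 ± 5.67% in the control. The extremes were 0.338% in ΔadmAΔadmB replicate 3 and 13.9% in control replicate 5.

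**Figure D2:**
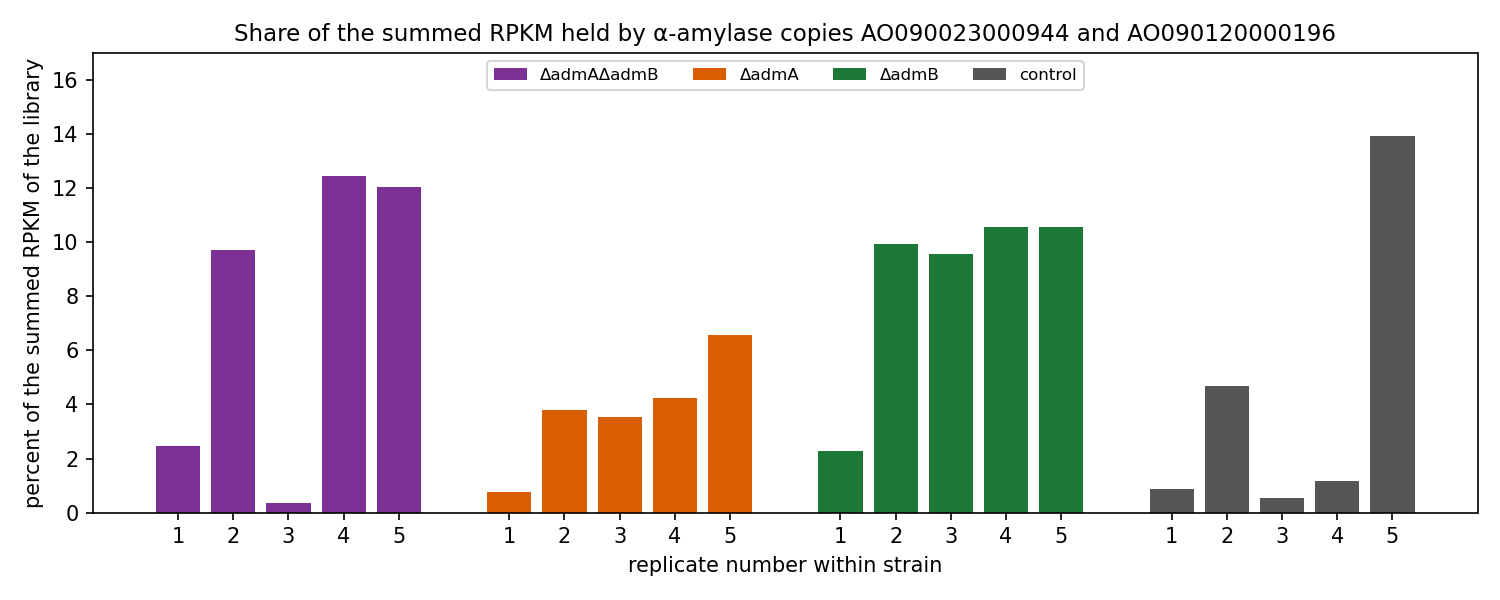
Share of the summed RPKM of each library, in percent, held by the 2 α-amylase copies, with 1 bar per library and the replicate number below it. The bars run between 0.338% and 13.9%, and both ends of that range occur in ΔadmAΔadmB and control libraries.

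Some of the genes beside the 2 copies varied with them and others did not. The genes AO090023000943 and AO090120000197, which each lie directly next to 1 copy in the reference order, had identical values in 18 of 20 libraries and differed by at most 0.701% in the others. Their levels ran between 4.39 and 27.9 RPKM, and reads could have been shared between them as between the copies. On the other side of AO090023000944, AO090023000945 ran between 15.1 and 180 RPKM and had a Pearson r of 0.96 with that copy across the 20 libraries. The gene AO090120000195, on the other side of AO090120000196, had an r of 0.87 with that copy, and the pair of identical values an r of 0.76 with its copies. Of the genes 2 places away, AO090023000942 had an r of -0.20, AO090023000946 of 0.19 and AO090120000198 of -0.57. These neighbours were named after their values had been seen, and r describes them without a test.

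The glucoamylase genes had levels of the same order as each other. glaA had 880.4, 2071, 84.2, 4372 and 7235 RPKM in the ΔadmAΔadmB libraries and 167, 2113, 445, 611 and 1963 RPKM in the ΔadmA libraries. It had 896, 2253, 3011, 5681 and 4033 RPKM in the ΔadmB libraries, against 364, 1368, 726, 818 and 5535 RPKM in the control libraries. Its 86.0-fold range was the widest of the 6 genes, with ΔadmAΔadmB replicates 3 and 5 at its ends. The means were 2929 ± 2901 RPKM in ΔadmAΔadmB, 1059.8 ± 909 RPKM in ΔadmA, 3175 ± 1809 RPKM in ΔadmB and 1762 ± 2139 RPKM in the control (SD, n = 5 each).

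glaB had 843, 2519, 65.6, 2937 and 1739 RPKM in the ΔadmAΔadmB libraries and 662, 1207, 829, 593 and 596 RPKM in the ΔadmA libraries. It had 1168, 2629, 2982, 2262 and 4036 RPKM in the ΔadmB libraries, against 246, 1085, 305, 572 and 3298 RPKM in the control libraries. The ΔadmA libraries lay within a narrow band, and their highest value was just above the lowest ΔadmB value. The means were 1621 ± 1181 RPKM in ΔadmAΔadmB, 777 ± 258 RPKM in ΔadmA, 2616 ± 1045 RPKM in ΔadmB and 1101 ± 1272 RPKM in the control (SD, n = 5 each). On the RPKM scale glaA exceeded glaB in 4 of 5 ΔadmAΔadmB, 3 of 5 ΔadmA, 2 of 5 ΔadmB and 5 of 5 control libraries. The ratio of glaA to glaB ran between 0.252 and 4.16, with strain medians of 1.28 in ΔadmAΔadmB, 1.03 in ΔadmA, 0.999 in ΔadmB and 1.48 in the control, and its ranges overlapped in all 4 strains.

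The α-glucosidase gene agdA had 200.4, 369.7, 36.8, 413 and 259 RPKM in the ΔadmAΔadmB libraries and 139, 136, 165, 285 and 298 RPKM in the ΔadmA libraries. It had 180.3, 488, 451, 247 and 434 RPKM in the ΔadmB libraries, against 116, 338, 98.6, 92.9 and 355 RPKM in the control libraries. ΔadmB replicates 2, 3 and 5 lay above every control library, and the other libraries of these strains overlapped. The means were 256 ± 149 RPKM in ΔadmAΔadmB, 205 ± 79.9 RPKM in ΔadmA, 360.2 ± 137 RPKM in ΔadmB and 200.1 ± 134 RPKM in the control (SD, n = 5 each). ΔadmAΔadmB replicate 3 had the lowest value of all 20 libraries for agdA, as it did for each of the other 5 genes.

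The spread within strains differed between the genes. On the log2(RPKM + 1) scale the SD within strains was 0.91 for amyR and 0.95 for agdA, 1.41 for glaB, 1.72 for glaA and 1.73 for each α-amylase copy. The median over all 10652 genes tested was 0.59, and over those averaging at least 100 RPKM it was 0.64. The SD of each α-amylase copy was larger than that of 90.1% of genes tested, and that of amyR than that of 69.5%. The regulator had the smallest SD of the 6.

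The starch genes varied together from library to library. Over the 20 libraries and on the log2(RPKM + 1) scale, amyR and the summed α-amylase copies had a Pearson r of 0.967 and a Spearman rho of 0.967, with permutation p-values adjusted over 10 pairs of 1.7e-05 and 2e-05. The unadjusted p of 1e-05 is the smallest that 100000 permutations can give. Each log2 unit of amyR went with 1.91 log2 units of α-amylase, so that the ratio of summed α-amylase to amyR ran between 478 and 4214. Without the 2 libraries farthest from the median of amyR, r was 0.949, and with the strain means subtracted it was 0.971. Within the set of 12 libraries r was 0.949, and within the set of 8 it was 0.993.

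The other enzyme genes followed amyR less closely. For agdA, its direct neighbour, r was 0.868 and rho 0.794 (adjusted permutation p-values 2.2e-05 and 0.00014), with a slope of 0.93 log2 units per log2 unit of amyR. The ratio of agdA to amyR stayed between 1.31 and 3.85. For glaA, r was 0.848 and rho 0.847 (adjusted permutation p-values 1.7e-05 and 2e-05), with a slope of 1.65. For glaB, r was 0.789 and rho 0.749 (adjusted permutation p-values 1.7e-05 and 0.00031), with a slope of 1.32. Without the 2 libraries farthest from the median of amyR these r were 0.818 for agdA, 0.846 for glaA and 0.676 for glaB. Within the set of 12 libraries and the set of 8 libraries they were 0.816 and 0.931 for agdA, 0.905 and 0.737 for glaA, and 0.636 and 0.921 for glaB.

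The 6 pairs among the enzyme genes had r between 0.762, for agdA with glaA, and 0.901, for summed α-amylase with agdA and with glaA, and each had an adjusted permutation p of at most 0.00015 for r. The values of a library share its total of mapped reads. With the libraries rescaled by median ratios, whose factors were 0.929 to 1.08, r between amyR and summed α-amylase was 0.966.

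**Figure D3:**
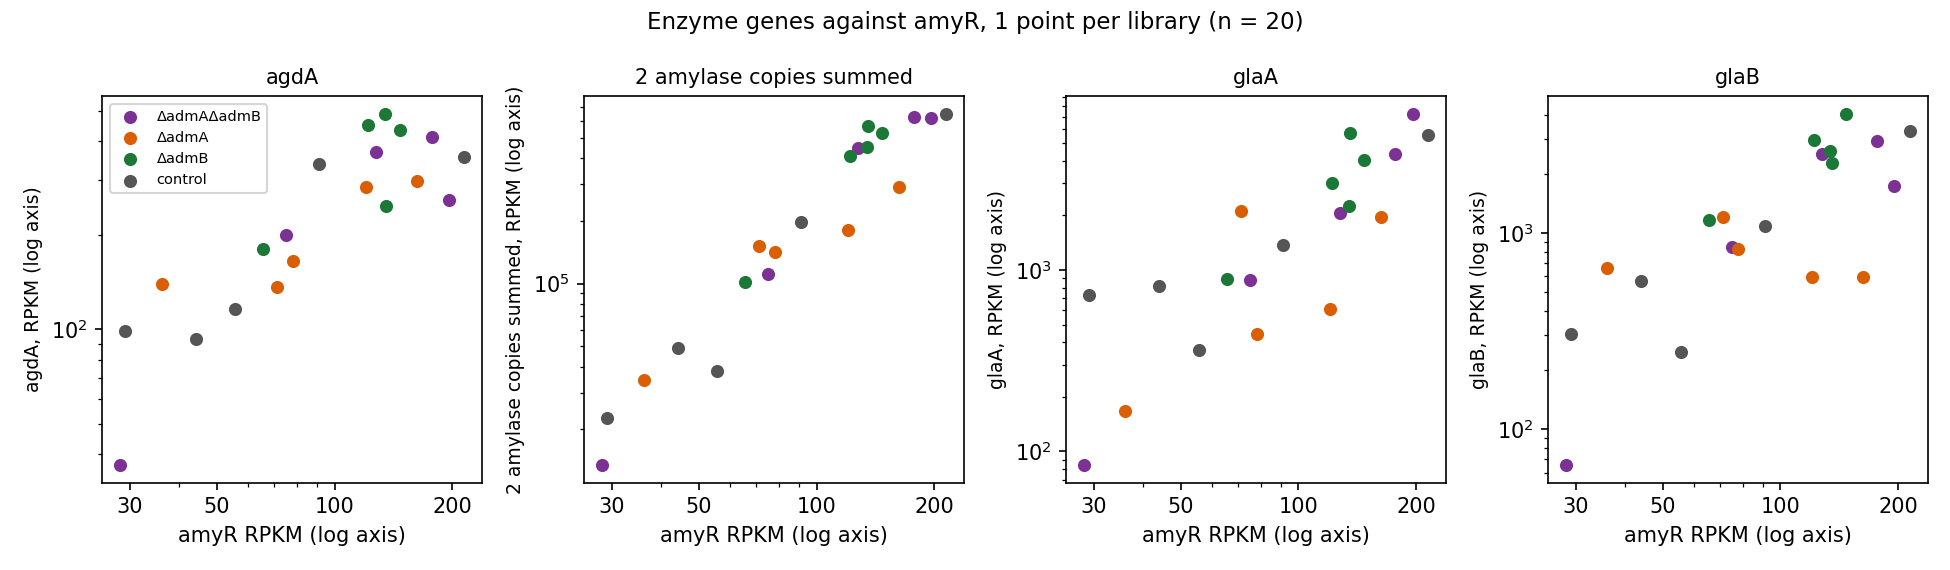
RPKM of agdA, of the 2 α-amylase copies summed, of glaA and of glaB against the RPKM of amyR, both axes log, with 1 point per library coloured by strain. The points of all 4 strains lie along one trend in each panel, with r of 0.868, 0.967, 0.848 and 0.789.

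This shared variation ran along the main axis of difference between libraries. The first principal component, computed without the starch genes, held 27.0% of the variance of all other genes. It had r of 0.897 with amyR, 0.856 with summed α-amylase, 0.780 with glaA, 0.653 with agdA and 0.612 with glaB, with adjusted permutation p-values of 2.5e-05, 2.5e-05, 6.7e-05, 0.0018 and 0.0033 over these 5 relations. The component was -50.4 in ΔadmAΔadmB, -73.8 in ΔadmA, -59.6 in ΔadmB and -62.3 in the control for replicate 1, and 81.4, 70.5, 20.8 and 83.6 in these strains for replicate 5. It was highest in replicate 5 in 3 of 4 strains and lowest in replicate 1 in 2 of 4. The level of amyR was highest in replicate 5 in 4 of 4 strains and lowest in replicate 1 in 2 of 4. For summed α-amylase, replicate 5 was highest in 2 of 4 strains and replicate 1 lowest in 2 of 4. The labels do not say what a replicate number stands for. With strain means and replicate-number means both subtracted, an alternative chosen after seeing the data, r with amyR was 0.951 for summed α-amylase, 0.854 for agdA, 0.674 for glaB and 0.669 for glaA. The permutation p-values treat the 20 libraries as exchangeable, which a shared replicate number would limit.

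The conidiation activator brlA ran opposite to the starch genes. brlA, which starts the formation of conidiophores, had 10.4, 1.62, 34.6, 1.17 and 2.33 RPKM in the ΔadmAΔadmB libraries and 90.2, 3.95, 3.14, 2.02 and 2.86 RPKM in the ΔadmA libraries. It had 29.7, 1.36, 1.08, 0.476 and 0.931 RPKM in the ΔadmB libraries, against 46.7, 3.69, 14.5, 3.19 and 1.60 RPKM in the control libraries. The highest brlA value of each strain fell in the library with that strain's lowest or second lowest summed α-amylase level. Between brlA and summed α-amylase, r was -0.842 and rho -0.866 (permutation p-values adjusted over 25 relations of 0.0005 and 0.00025). Without the 2 libraries farthest from the median of brlA, r was -0.834. It was -0.942 within the set of 12 libraries and -0.914 within the set of 8. For amyR, glaA, glaB and agdA, r with brlA was -0.788, -0.806, -0.714 and -0.706, with adjusted permutation p-values of 0.00075, 0.0005, 0.0031 and 0.0033. The median of brlA over the 20 libraries was 3.00 RPKM, so many of its values were low. How many other genes ran opposite to the starch genes as strongly was not counted. Strong relations were common, with 205 genes at r of at least 0.8 with summed α-amylase. These r are therefore not shown to be particular to brlA.

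The other conidiation markers had weaker relations to the starch genes than brlA, and of these vosA and pksP had the same direction. For vosA, a regulator of spore maturation, r ran from -0.63 to -0.49, and 4 of 5 relations passed an adjusted permutation p of 0.05. For ayg1 and pksP, genes of spore pigment synthesis, and for wetA, a regulator of conidial maturation, 0 of 5 relations each passed, with r of 0.04 to 0.25 for ayg1, -0.39 to -0.23 for pksP and -0.07 to 0.11 for wetA. The RPKM of all 5 markers summed to 25.8 to 1549 in ΔadmAΔadmB, 23.9 to 1870 in ΔadmA, 21.6 to 186 in ΔadmB and 29.0 to 762 in control libraries. In the 8 libraries where the sum reached 100, ayg1 made up at least 70.2% of it, so the sum mostly shows ayg1. Pearson r between the sum and a starch gene ran from -0.06 to 0.11 and Spearman rho from -0.30, for agdA, to 0.02, for glaA, with adjusted permutation p-values of 0.892 and 0.933. The single markers were examined after the sum had been seen. The part of conidiation in the levels of the starch genes was not tested.

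A search of 10646 other tested genes gave those whose pattern over the 20 libraries was most like each starch gene. For amyR these were AO090023000945 with r = 0.971, AO090012000415 with r = 0.938 and AO090103000089 with r = 0.937. AO090023000945 is the gene beside the α-amylase copy AO090023000944. For summed α-amylase they were AO090023000945 with r = 0.958, AO090012000590 with r = 0.956 and AO090103000089 with r = 0.947, so that amyR itself, at 0.967, was above all 3. For agdA they were AO090005000698 with r = 0.892, AO090038000631 with r = 0.873 and AO090003000859 with r = 0.873. For glaA they were AO090102000039 with r = 0.926, AO090026000775 with r = 0.890 and AO090023001008 with r = 0.889. For glaB they were AO090038000631 with r = 0.889, AO090012000590 with r = 0.878 and AO090026000775 with r = 0.870. For agdA, glaA and glaB the r of amyR, at 0.868, 0.848 and 0.789, was below all 3 in each case. An r of at least 0.9 was reached by 16 genes for amyR, 20 for summed α-amylase, 1 for glaA and 0 for agdA and glaB. At least 0.8 was reached by 197 genes for amyR, 205 for summed α-amylase, 80 for glaA, 38 for agdA and 31 for glaB.

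In the comparisons of strains that were made, none of the 6 genes passed the adjusted threshold with all libraries weighted equally. Not passing it does not show that levels were equal. ΔadmA was not tested against ΔadmB. Each comparison used limma on log2(RPKM + 1) of all 20 libraries, and a gene was called at a Benjamini-Hochberg adjusted p under 0.05 over the 10652 genes tested. In ΔadmAΔadmB against the control, 0 of 6 starch genes were called, beside 0.0% of all genes tested, and 0 of 6 had an unadjusted limma p under 0.05, beside 4.87%. The log2 differences were 0.54 for amyR, 1.13 and 1.11 for the α-amylase copies, 0.32 for glaA, 0.44 for glaB and 0.24 for agdA, with limma adjusted p-values of 0.993 to 0.996. For the copy AO090023000944 the 95% confidence interval ran from -1.07 to 3.32. Without ΔadmAΔadmB replicate 3 its difference was 2.08, and 0 of 6 starch genes were called, beside 2 of the 10652 genes tested.

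In ΔadmA against the control, 0 of 6 starch genes were called, beside 1.08% of all genes tested, and 0 of 6 had an unadjusted limma p under 0.05, beside 10.3%. The log2 difference was 0.29 for amyR, 0.58 and 0.57 for the α-amylase copies, -0.62 for glaA, 0.12 for glaB and 0.21 for agdA, with limma adjusted p-values of 0.908 to 0.984. For α-amylase and glaB the direction depended on the scale. Their mean RPKM was lower in ΔadmA than in the control, at 160008 against 191460 for the copies summed and 777 against 1101 for glaB. The 95% confidence intervals were widest for the α-amylase copies, at -1.62 to 2.77 for AO090023000944, and narrowest for amyR, at -0.88 to 1.46. The median over the 6 genes, which counts each copy, was 0.25, against -0.00 over all genes tested.

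In ΔadmB against the control, 0 of 6 starch genes were called, beside 0.0% of all genes tested. All 6 differences were above 0 without passing the test, beside 49.7% of all genes. These 6 directions are not independent of each other, since the genes varied together, with r of 0.762 to 0.967 with the copies summed. The 2 α-amylase copies, whose sum is read as the level, are counted singly among the 6. Their sum had a log2 difference of 2.01. The log2 differences were 0.77 ± 0.56 for amyR, 2.02 ± 1.04 and 2.00 ± 1.04 for the α-amylase copies AO090023000944 and AO090120000196, 1.28 ± 1.04 for glaA, 1.82 ± 0.85 for glaB and 1.01 ± 0.58 for agdA (SE). The limma adjusted p-values ran from 0.611 to 0.739. At an unadjusted limma p under 0.05, glaB alone would have been counted, with an interval of 0.02 to 3.61, beside 8.11% of all genes tested. The interval for AO090023000944 ran from -0.17 to 4.21 and that for agdA from -0.21 to 2.22. The median over the 6 genes, which counts each copy, was 1.55, against -0.00 over all genes tested. Of all genes tested, 5.26% had a difference of at least 1. glaB and agdA were higher in the ΔadmB library in 21 of 25 pairs of a ΔadmB and a control library. The count was 20 for glaA and 19 for amyR and each α-amylase copy. These pairs reuse the same libraries, and the share over all genes was not counted. Among the 5 pairs with the same replicate number, glaB and agdA were higher in ΔadmB in 5, and amyR, glaA and each α-amylase copy in 4.

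This comparison depended on how single libraries were weighted. Sample quality weights give less influence to libraries that stray from their strain. With them, 4 of 6 starch genes rose in ΔadmB at a limma adjusted p under 0.05, beside 7.00% of all tested genes (either direction). The 4 were agdA (1.60, adjusted p = 0.0442), AO090023000944 (2.86, 0.0363), AO090120000196 (2.82, 0.0375) and glaB (2.46, 0.0354), with amyR and glaA not called. The α-amylase copies, whose sum is read as the level, are counted singly here. Control replicate 5, which had the highest amyR and α-amylase levels of all 20 libraries, received the lowest weight, 0.303. The next lowest, 0.337, went to ΔadmB replicate 4, which had the highest α-amylase and glaA levels of its strain, and ΔadmB replicates 2 and 3 received 2.71 and 3.18. With equal weights and without control replicate 5, the differences were 2.74 and 2.71 for the α-amylase copies and 2.38 for glaB, and without control replicate 3 they were 1.53 for AO090023000944 and 1.52 for glaB. Within the set of 12 libraries they were 1.11 and 1.07 for the copies and 1.40 for glaB, with 0.034 for amyR and 0.59 for agdA, and within the set of 8 they were 2.93 and 2.90 for the copies and 2.19 for glaB, with 1.43 for amyR and 1.73 for agdA. The set of 8 holds 1 ΔadmB library, which is assumed to vary like the other strains. Without control replicate 5, without control replicate 3 and within the set of 12, 0 of 6 genes were called. Of the 10652 genes tested, at most 1 was called with 1 library left out, and 2 within the set of 12. Beside these counts, 0 of 6 says little about the starch genes.

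The ΔadmAΔadmB strain was also set against each single deletion. Against ΔadmA, 0 of 6 starch genes were called, beside 1.77% of all genes tested and 10.7% at an unadjusted p under 0.05, with log2 differences of 0.25 for amyR, 0.55 and 0.54 for the α-amylase copies, 0.94 for glaA, 0.32 for glaB and 0.03 for agdA and limma adjusted p-values of 0.854 to 0.996. Against ΔadmB, 0 of 6 were called, beside 0.0% of all genes tested and 5.75% at an unadjusted p under 0.05, with differences of -0.23 for amyR, -0.90 and -0.88 for the α-amylase copies, -0.97 for glaA, -1.37 for glaB and -0.77 for agdA and limma adjusted p-values of 0.905 to 0.989. The interaction, ΔadmAΔadmB minus ΔadmA less ΔadmB minus control, ran from -1.49 for glaB to -0.34 for glaA, with 0 of 6 called beside 0.0% of all genes tested and 6.51% at an unadjusted p under 0.05. These comparisons share libraries, the 3 against the control sharing all 5 control libraries, so their values are not independent of each other. For no starch gene did the 5 values of one strain lie wholly outside the range of another's, which held for 0.601% of all genes tested in ΔadmAΔadmB against the control, 1.98% in ΔadmA and 1.12% in ΔadmB. The share was 2.53% in ΔadmAΔadmB against ΔadmA and 0.901% in ΔadmAΔadmB against ΔadmB.

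**Figure D4:**
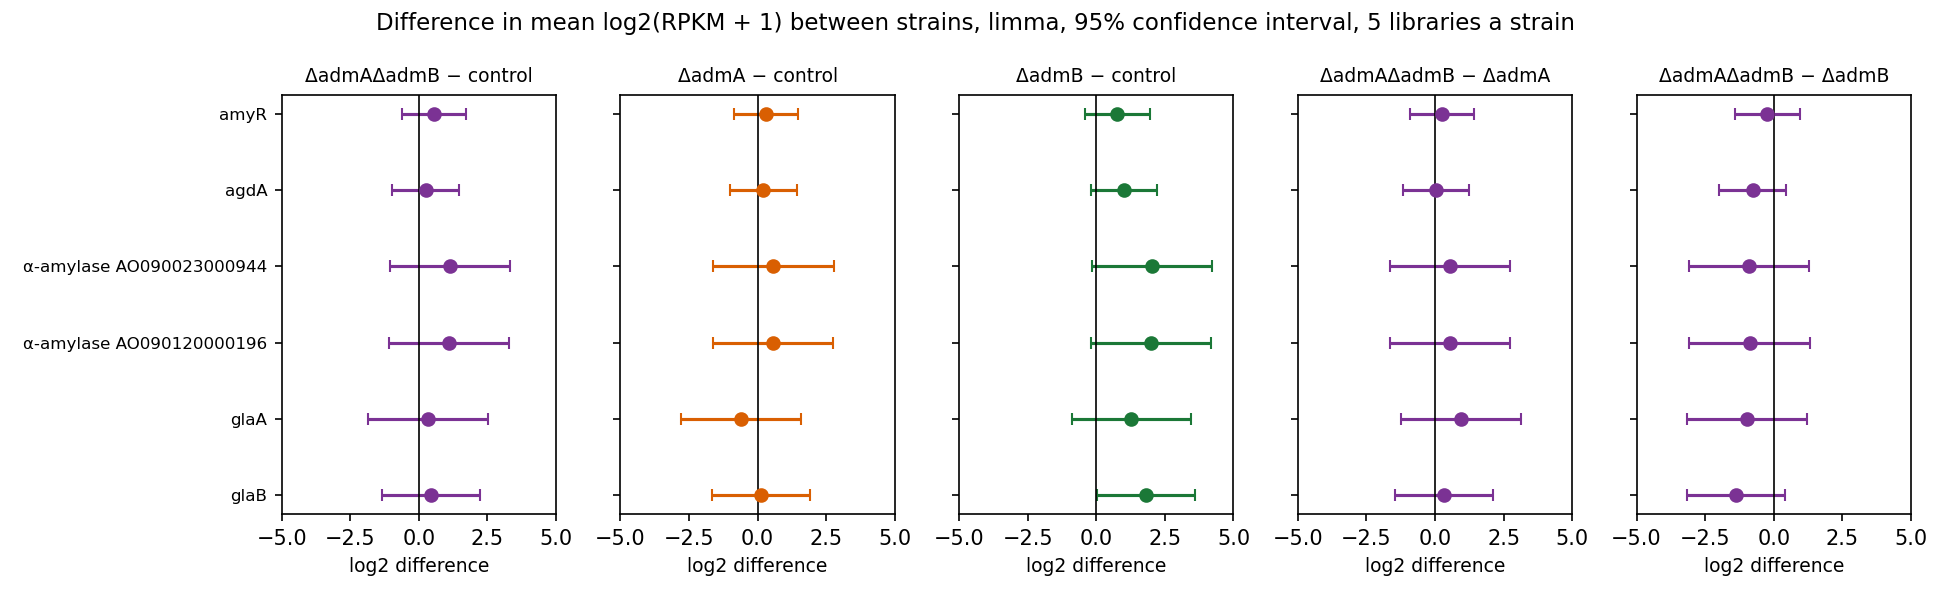
Difference in mean log2(RPKM + 1) of each starch gene, with bars for the 95% confidence interval from limma, in 5 comparisons with 5 libraries a strain. Only the interval of glaB in ΔadmB against the control, 0.02 to 3.61, leaves out 0, and its adjusted p is 0.611.

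Other genes of carbon use were taken by symbol, which 714 of the 12074 genes have in the RefSeq table. Of 5 carbon regulators, among them creB, a deubiquitinating enzyme of carbon catabolite repression, and xlnR, the activator of xylanase and cellulase genes, 0 rose and 0 fell in every comparison. The same held for 16 enzymes of plant polysaccharides, 3 genes of glycolysis and glucose use and the 5 conidiation markers. Of all genes tested, 0.0% to 1.77% were called in a comparison, so 0 calls in lists this short say little about these genes. The medians of the 16 polysaccharide enzymes were log2 differences of -0.52 in ΔadmAΔadmB, 0.01 in ΔadmA and -0.28 in ΔadmB, each against the control. Of 10 genes in the reference order, 5 on each side of amyR and agdA, 8 could be tested. In every comparison 0 of them were called, beside the same shares of all genes tested.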

How the data were processed

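RNA in 20 libraries, 5 for each of 4 strains, was sequenced on an Illumina GAIIx. The authors deposited 1 table of RPKM values per library, per the file headers, and no counts. The submitters' processing notes name TopHat2 2.0.9, Cufflinks 2.1.1, CASAVA 1.8.2 and FastQC 0.10.1, with no roles given. Build and annotation were not given in the sources used here. RefSeq's table of assembly ASM18445v3 served only for symbols and gene order, and the starch genes' names come with the list of locus tags. No coordinates or sequences are printed.

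Values were taken as log2(RPKM + 1), and genes reaching 1 RPKM in 5 or more libraries were kept, 10652 of 12074. Strains were compared with limma 3.58.1 (R 4.3.3; lmFit, eBayes with trend, 1 mean per strain, two-sided) and Benjamini-Hochberg adjustment over all genes tested. Correlations used two-sided permutation tests with 100000 resamples (scipy 1.17.1). The code was tested on simulated data. The depth in reads is unknown, so precision rests on the number of libraries.

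Alternatives covered the pseudocount, the filter, scaling, quality weights, library sets, a replicate block and leaving out each library. Replicate numbers were not treated as pairs in the main comparisons, since the labels tie them to no shared flask or day. Most same-numbered libraries matched best with each other, 21 of 30, and the replicate block is the alternative that takes this up. The plan was to name genes beyond the listed ones if they passed the threshold in a list taken by symbol or near amyR. Those among the 3 most like a starch gene in pattern were also to be named. None in the lists or near amyR passed. admA, creB, xlnR, the conidiation markers, agdC and the neighbours of amyR and of the α-amylase copies are named as exceptions. Relatives by protein sequence were not analysed here. The members and lists were chosen with earlier results of these data known.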

Additional observations from a re-analysis of the deposited data

Results flagged for a closer look

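For amyR and α-amylase, ΔadmB replicate 1 stood apart from the other 4 ΔadmB libraries on the log2(RPKM + 1) scale. Its amyR level was 65.6 RPKM, its level of AO090023000944 was 48160 RPKM, its level of AO090120000196 was 53459 RPKM and the 2 copies summed to 101619 RPKM. On the log2(RPKM + 1) scale the gap to the next library was 0.77, 0.82, 0.79 and 0.80 of the strain's whole range in these 4 cases, above the 95% limit of Dixon's test for 5 values. On the RPKM scale itself it was 0.69, 0.68, 0.63 and 0.65, below that limit. In this strain agdA, glaA and glaB were not flagged. The 28 groups of 5 libraries tested share libraries, and chance flags about 1 in 20 such groups.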

How the results depend on the processing

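No starch gene was called in any comparison under any alternative except sample quality weights, which called 4 of 6 in ΔadmB against the control. Of 486 differences recomputed under settings that kept every library or split them by set, 456 kept their direction and side of the threshold, 4 passed it and 26 changed sign. Of 720 with 1 library left out, 25 changed sign and none passed. The cause of these changes was not tested. Both totals include differences that could not change sign, so they overstate stability. Leaving out a library of a strain outside the comparison does not move a difference between strains. Nor does the replicate block, since every strain holds the same replicate numbers. With the set of 12 libraries alone, ΔadmA against the control gave -0.29 for amyR, -0.35 and -0.37 for the α-amylase copies and -0.55 for glaB; ΔadmAΔadmB against ΔadmB gave 0.29 for amyR, 0.055 and 0.085 for the copies and 0.11 for glaA; and the interaction gave 0.59 for amyR, 0.41 and 0.46 for the copies, 1.39 for glaA and 0.0035 for glaB. With the set of 8 alone, ΔadmAΔadmB against the control gave -0.31 for agdA, -1.15 for glaA and -0.49 for glaB. In the same set ΔadmAΔadmB against ΔadmA gave -0.30 for amyR, -0.35 for agdA, -0.91 and -0.93 for the copies, -1.21 for glaA and -1.29 for glaB, and ΔadmA against the control gave 0.056 for glaA. ΔadmAΔadmB against ΔadmA also gave -0.47 and -0.50 for the copies after quantile normalization and -0.083 for agdA after rescaling to a common sum.

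With 1 library left out, differences that changed sign ranged as follows. ΔadmAΔadmB against the control ran from -0.025 to 0.84 for agdA and from -0.28 to 1.32 for glaA. ΔadmA against the control ran from -0.0080 to 0.70 for amyR and from -0.25 to 0.69 for glaB. ΔadmAΔadmB against ΔadmA ran from -0.043 to 0.70 for amyR, from -0.23 to 0.63 for agdA and from -0.089 to 1.28 for glaB. ΔadmAΔadmB against ΔadmB ran from -0.47 to 0.21 for amyR, from -1.35 to 0.056 and from -1.33 to 0.080 for the copies and from -1.56 to 0.038 for glaA. The interaction ran from -0.94 to 0.66 for glaA.

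Same-numbered libraries deviated from their strain means with correlations of -0.225 to 0.517 over 30 pairs. Of these pairs, 21 of 30 matched best with their own number. The values thus show a tendency to pair that the labels do not explain. With the replicate block, 0 of 6 starch genes were called in every comparison, with adjusted p-values of 0.298 to 0.449 in ΔadmB against the control (limma), and calls over all genes numbered 201 in ΔadmA against the control, where the fit without it gave 115, and 289 in ΔadmAΔadmB against ΔadmA, where it gave 189. Over all alternatives these counts ran from 2 to 686 and from 1 to 411. In ΔadmB against the control they ran from 0 to 746, and in the interaction from 0 to 67. With an unknown depth in reads, no limit of detection can be given for low values.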

Other observations

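Genes near amyR in the reference order differed in how they varied with it. The gene AO090003001204 had a Pearson r of -0.87 with amyR over the 20 libraries and ran between 9.01 and 137 RPKM, and rfeF had an r of -0.80 and ran between 55.6 and 341 RPKM. The 3 genes nearer to amyR on that side ran with it, at r of 0.60 for AO090003001205, 0.52 for AO090003001206 and 0.43 for AO090003001207. On the other side of agdA, AO090003001211 had an r of 0.04 and AO090003001212 of 0.21. These genes were named after their values had been seen, and the values are descriptions without a test. None was called in a comparison of strains, beside 0.0% to 1.77% of all genes tested. The gene agdC, also named after its symbol had been seen, ran between 93.7 and 2992 RPKM and had limma log2 differences of 0.89 in ΔadmAΔadmB, 0.62 in ΔadmA and 0.12 in ΔadmB, each against the control, and was called in none.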
